A study of Mus musculus with 16 samples.

Results

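Lumbar dorsal root ganglia of TrkA/C knock-in (KI) mice were compared with those of wild-type (WT) mice after a vehicle injection, so that the genotypes are set side by side without joint inflammation. The comparison uses 8 of the 16 libraries of the study, 4 labelled KI saline and 4 labelled WT saline, chosen by their titles alone. All mice were C57BL/6, 10 to 12 weeks old, and had received vehicle, named saline in the titles, into the ankle joint 14 days before sampling. Each library holds 6 ganglia (L4 to L6 of the injected side) pooled from 2 mice, so the spread between libraries is a spread between pools. The other 8 libraries are the same genotypes after complete Freund's adjuvant (CFA), an oil suspension of killed mycobacteria that inflames the joint. The labels name the line TrkA/C or TrkAC and do not describe the construct, its promoter or whether the mice carry 1 or 2 copies, nor the sex of the mice.

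Neurotrophins are growth factors that keep sensory neurons alive during development and act through the Trk family of receptor tyrosine kinases. TrkC, encoded by Ntrk3, is the receptor for neurotrophin-3 on proprioceptors and some touch neurons. The p75 receptor, encoded by Ngfr, binds all neurotrophins and works together with the Trk receptors. Peptidergic nociceptors release CGRP and substance P and depend on nerve growth factor, whereas non-peptidergic nociceptors come to depend on Ret and the GDNF family after birth. A dorsal root ganglion also holds satellite glia, Schwann cells, macrophages and vessels, all of which contribute RNA.

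The receptor genes were read first, since the line is named for Trk receptors. Ngfr (chr11:95568818-95587698 in mm10), in CPM (counts scaled to the size of each library), had 1087, 1114, 968 and 1081 CPM in WT saline 1 to 4 and 736, 653, 718 and 714 CPM in KI saline 1 to 4. Every KI library was below every WT library, and the gene fell by 0.59 ± 0.06 on the log2 scale (adjusted p = 2.24e-05) by edgeR's quasi-likelihood test, where ± gives the standard error of each log2 fold change. Ntrk3 (chr7:78179986-78581034) moved the other way, with 55.6, 44.7, 50.5 and 29.3 CPM in WT saline 1 to 4 and 116, 127, 108 and 138 CPM in KI saline 1 to 4. The groups did not overlap, WT saline 4 was the lowest library, and the gene rose by 1.44 ± 0.15 on the log2 scale (adjusted p = 3.94e-05). Reads are counted per gene, so RNA of the native locus and of any introduced sequence cannot be told apart in these values. Ntrk2, the receptor gene for BDNF, had 334, 327, 318 and 266 CPM in WT saline 1 to 4 and 359.8, 333, 336 and 385 CPM in KI saline 1 to 4, which overlap, and its difference of 0.18 ± 0.09 did not pass the test (adjusted p = 0.213). Of 18 tested neurotrophin and receptor genes 2 rose, against 2.15% higher over all genes. The list as a whole did not rise: 10 of the 18 had a negative log2 fold change, and the median was -0.015. The second rise was Sorcs1, a sorting receptor, which rose by 0.28 ± 0.07 on the log2 scale (adjusted p = 0.0444) and lost its call without KI saline 2, KI saline 4, WT saline 1, WT saline 2, WT saline 3 or WT saline 4. The levels of the 3 receptor genes are drawn for each library in the plot of neurotrophin receptor genes.

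**Figure D1:**
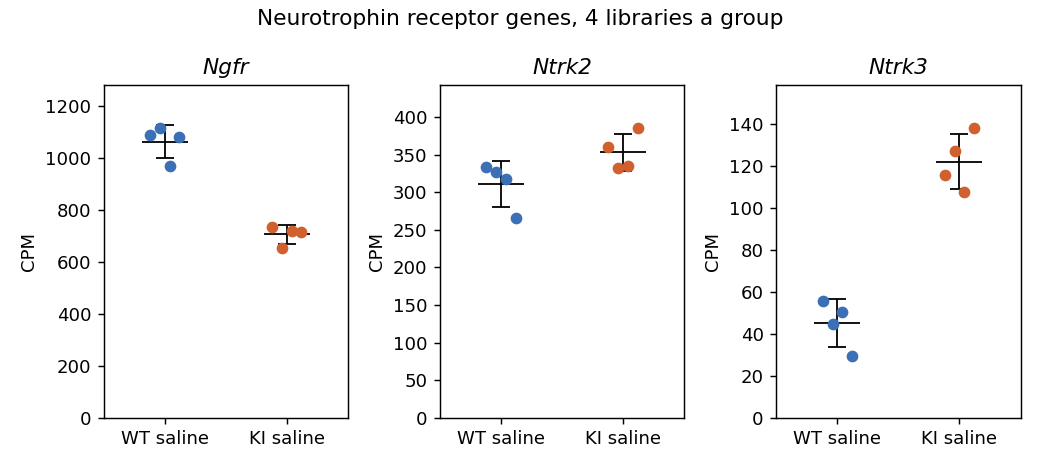
CPM of Ngfr, Ntrk2 and Ntrk3 in the 4 WT saline and 4 KI saline libraries; points are libraries, bars the mean and SD, and each panel has its own axis from 0. The groups are apart for Ngfr and Ntrk3 and overlap for Ntrk2.

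Over all genes, 15507 could be tested and 673 passed an adjusted p of 0.05 (4.34%), with 333 higher in KI ganglia (2.15%) and 340 lower (2.19%). Most differences were small, with a median absolute log2 fold change of 0.38 among called genes, and 111 of the rises and 63 of the falls reached 1.5-fold. Groups did not overlap for 2258 genes (14.6%), 620 of which were called. Transcripts of the called genes differed in length, with a median of 5137 bases for the genes that rose, 2268 bases for those that fell and 3376 bases for all tested genes. Without WT saline 3 and 4 these medians were 5382 bases for 69 called rises and 3043 bases for 125 called falls. The part of transcript length in the calls was not tested.

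Libraries held 22742209 to 37576008 counts, and the number of pools, 4 a group, limits the precision. The 14 pan-neuronal markers, which define the tissue, were all measured and stood at a summed 14137.5 to 14851 CPM in WT and 12961 to 13727 CPM in KI libraries. The libraries KI saline 1 and KI saline 4 stand out for skeletal muscle RNA, KI saline 1 with a summed 1390.4 CPM and KI saline 4 with 1369 CPM over 24 muscle genes, against 18.9 and 196 CPM in KI saline 2 and 3 and 16.6 to 134 CPM in WT libraries. WT saline 4 stands out for ribosomal protein genes, at a summed 15365 CPM over 75 genes against 10395 to 11308 CPM in the other WT libraries and 9518 to 10022 CPM in KI libraries. Ryr1, the calcium release channel of muscle, had 1.94, 1.55, 1.74 and 1.75 CPM in WT saline 1 to 4 and 28.5, 2.31, 4.67 and 34.1 CPM in KI saline 1 to 4. Its high values are those of the same 2 libraries. Of the 24 muscle genes 12 were called higher (50%, against 2.15% over all genes). Without KI saline 1 and 4 the whole comparison gave 132 calls (50 higher and 82 lower), with 127 among the 673. With WT saline 4 left out as well, it gave 162 calls.

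**Figure D2:**
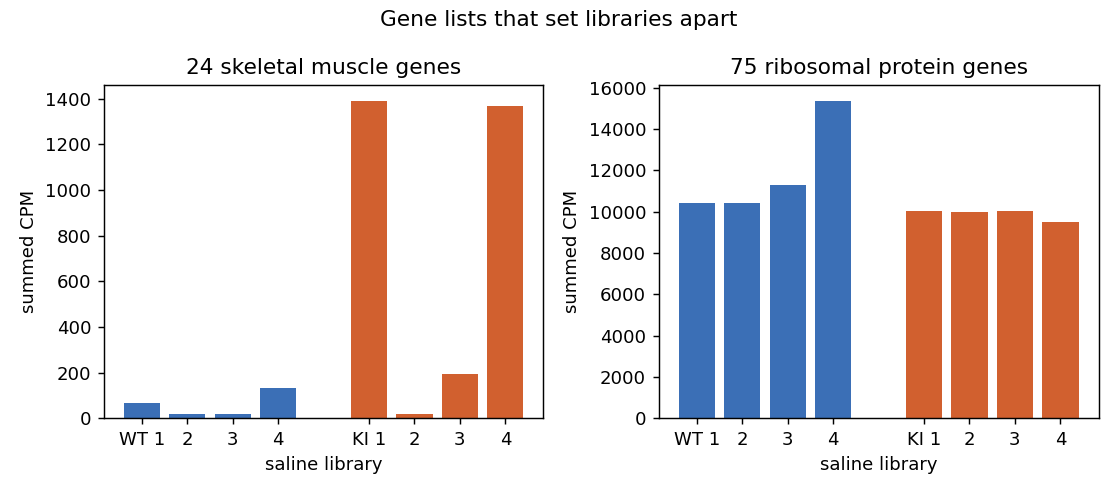
Summed CPM of 24 skeletal muscle genes (left) and 75 ribosomal protein genes (right) in each saline library; bars start at 0. KI saline 1 and 4 are high for muscle genes, and WT saline 4 is high for ribosomal protein genes.

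Many genes of peptidergic nociceptors were lower in KI ganglia. Of 26 tested members of that list 13 were lower and 1 was higher, with a median log2 fold change of -0.41, against 2.19% lower, 2.15% higher and a median of 0.0015 over all tested genes. The list holds several genes known from these data before it was written (Smr2, Pcp4l1, Chrna7 and Prokr2), so its count is a description and supports nothing on its own. In tissue pools, fewer neurons of a type and less RNA per neuron cannot be told apart. Without WT saline 4 the list had 11 lower and 0 higher, and with a muscle score as covariate 13 lower.

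Calca, which encodes the neuropeptide CGRP, had 1108, 1025, 1123 and 1792 CPM in WT saline 1 to 4 and 683, 669, 707 and 628 CPM in KI saline 1 to 4. WT saline 4 was by far the highest library, yet each of the other 3 WT libraries also lay above all KI libraries. The gene fell by 0.91 ± 0.13 on the log2 scale (adjusted p = 0.000735) and kept its call without any single library. Its paralogue Calcb has a similar sequence and was not called. Whether reads of the pair were assigned to the wrong gene was not tested.

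Smr2, which encodes a small secreted protein of salivary glands also found in sensory neurons, had 12.2, 8.72, 8.61 and 16 CPM in WT saline 1 to 4 and 2.51, 2.28, 3.38 and 2.99 CPM in KI saline 1 to 4. It fell by 2.03 ± 0.19 on the log2 scale (adjusted p = 2.18e-05), with no overlap of groups. Pcp4l1, another gene of the peptidergic list, had 277, 284, 268 and 327 CPM in WT saline 1 to 4 and 164, 173, 179 and 161 CPM in KI saline 1 to 4. It fell by 0.77 ± 0.08 on the log2 scale (adjusted p = 3.94e-05). Both falls were called in each fit that left out 1 library.

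Ptgir, the receptor for prostacyclin, a mediator that sensitises nociceptors, had 73.5, 82.1, 86 and 112 CPM in WT saline 1 to 4 and 49, 38.7, 44.1 and 42.2 CPM in KI saline 1 to 4. It fell by 1.02 ± 0.12 on the log2 scale (adjusted p = 0.000105), with no overlap of groups. Prokr2, a receptor for prokineticins, was at 13.7 to 16.2 CPM in WT and 8.72 to 10.6 CPM in KI libraries and fell by 0.71 ± 0.11 on the log2 scale (adjusted p = 0.00136). F2r, the thrombin receptor PAR1, was at 18.2 to 21.8 CPM in WT and 9.22 to 12.8 CPM in KI libraries and fell by 0.80 ± 0.12 on the log2 scale (adjusted p = 0.000808). Of the 89 tested receptors for mediators, amines, opioids and peptides 6 fell and 5 rose (12.4%, against 4.34% over all genes). The falls numbered 3 without KI saline 4 or WT saline 3, and the rises 2 without any 1 of KI saline 1, 2, 3 and 4 and WT saline 3 and 4. Galr1, a galanin receptor, fell by 0.74 ± 0.18 on the log2 scale (adjusted p = 0.0289) but lost its call without KI saline 2, KI saline 3, KI saline 4 or WT saline 3.

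Ion channel genes known from nociceptors were among the falls. Trpv1, the heat and capsaicin channel, was at 263 to 300.4 CPM in WT and 167 to 227 CPM in KI libraries and fell by 0.45 ± 0.09 on the log2 scale (adjusted p = 0.0121). Its call was lost without WT saline 3 and 4 together and with a ribosomal protein score as covariate. Asic3, an acid-gated channel, was at 92.7 to 108 CPM in WT and 71.2 to 83.9 CPM in KI libraries and fell by 0.39 ± 0.07 on the log2 scale (adjusted p = 0.00472). That call was lost without KI saline 1 and 4 together. Of 27 tested acid, ATP, HCN and mechanically gated channel genes Asic3 was the 1 fall and 2 rose. The called share was 11.1%, against 4.34% over all genes, and the list median was 0.11. Trpm8, the cold channel, was at 47.3 to 61.1 CPM in WT and 39.9 to 44.5 CPM in KI libraries, and its change of -0.35 ± 0.09 lost the call without KI saline 1, KI saline 2, KI saline 3, KI saline 4, WT saline 1 or WT saline 3. Of 20 tested TRP channel genes Trpv1 and Trpm8 were the 2 called by edgeR (10%, against 4.34% over all genes). DESeq2 called 2 higher and 2 lower. The median of the TRP list was 0.06, with 11 positive and 9 negative changes.

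Serotonin-gated channel subunits fell together. Of 34 tested genes of GABA, glycine, nicotinic and serotonin-gated receptors 4 fell and 2 rose (17.6%, against 4.34% over all genes). The median log2 fold change of that list was 0.06, with 22 positive and 12 negative changes. Htr3a had 222, 239.6, 221 and 223 CPM in WT saline 1 to 4 and 151, 107, 149 and 145 CPM in KI saline 1 to 4 and fell by 0.71 ± 0.10 on the log2 scale (adjusted p = 0.000398). Htr3b, its partner subunit, was at 28.4 to 30.4 CPM in WT and 14.8 to 20.4 CPM in KI libraries and fell by 0.72 ± 0.09 on the log2 scale (adjusted p = 0.000225). KI saline 2 was the lowest library for both genes. Chrna7, the nicotinic subunit alpha 7, had 73.6, 68.6, 58.2 and 62 CPM in WT saline 1 to 4 and 43.7, 40.3, 43.5 and 42.6 CPM in KI saline 1 to 4 and fell by 0.63 ± 0.07 on the log2 scale (adjusted p = 5.71e-05). Gabrg3, a GABA-A receptor subunit, was at 3.72 to 6.96 CPM in WT and 1.4 to 2.99 CPM in KI libraries and fell by 1.24 ± 0.24 on the log2 scale (adjusted p = 0.00851).

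Several neuropeptide genes and genes that process peptides fell. Of 28 tested members 9 were lower and 1 was higher, with a median of -0.22, against 2.19% lower over all genes tested. Without KI saline 1 and 4 together 5 were lower and 0 higher. The rise was Scg3, a granin-binding protein, which rose by 0.21 ± 0.05 on the log2 scale (adjusted p = 0.0316) and lost the call without KI saline 1, KI saline 3 or WT saline 1. Tac1, the substance P gene, had 259.9, 247, 263 and 367 CPM in WT saline 1 to 4 and 206, 177, 193 and 188 CPM in KI saline 1 to 4 and fell by 0.57 ± 0.11 on the log2 scale (adjusted p = 0.00599). Gal, which encodes galanin, had 25.2, 26.8, 23.6 and 36.4 CPM in WT saline 1 to 4 and 13.2, 8.51, 15.7 and 9.19 CPM in KI saline 1 to 4 and fell by 1.27 ± 0.22 on the log2 scale (adjusted p = 0.00431). WT saline 4 was the highest WT library for both, and no KI library reached any WT library. Adcyap1, the PACAP gene, was at 118 to 154 CPM in WT and 90.9 to 100.2 CPM in KI libraries and fell by 0.47 ± 0.08 on the log2 scale (adjusted p = 0.00431). Scg2, a granin of secretory granules, had 543, 526, 584 and 650.5 CPM in WT saline 1 to 4 and 448, 398, 438 and 422 CPM in KI saline 1 to 4 and fell by 0.43 ± 0.07 on the log2 scale (adjusted p = 0.00208). Pcsk1, the prohormone convertase PC1/3, had 94.9, 92.1, 104 and 93.8 CPM in WT saline 1 to 4 and 72.3, 68, 72.9 and 75.6 CPM in KI saline 1 to 4 and fell by 0.41 ± 0.07 on the log2 scale (adjusted p = 0.00431). Both are part of the dense-core vesicle pathway. The other lower members were Nmb, Pam and Cartpt, with changes of -0.44 ± 0.10, -0.26 ± 0.06 and -0.93 ± 0.23, and the call of Nmb was lost without KI saline 4, of Pam without KI saline 2 and of Cartpt without KI saline 2, KI saline 4 or WT saline 4.

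Promoters of Scg2, Pcsk1 and Cartpt are shown because they are the 3 of 17 called-lower genes of the peptide and peptidergic lists with a RefSeq promoter entry whose window holds the palindrome TGACGTCA, the cyclic AMP response element (CRE), the site of CREB. The window runs from 250 bases before to 50 bases after the annotated start, from RefSeq's GRCm38.p6 tables, written 5′ to 3′ along the gene's strand with the CRE in capitals.
Scg2, chr1:79439977-79440276, minus strand: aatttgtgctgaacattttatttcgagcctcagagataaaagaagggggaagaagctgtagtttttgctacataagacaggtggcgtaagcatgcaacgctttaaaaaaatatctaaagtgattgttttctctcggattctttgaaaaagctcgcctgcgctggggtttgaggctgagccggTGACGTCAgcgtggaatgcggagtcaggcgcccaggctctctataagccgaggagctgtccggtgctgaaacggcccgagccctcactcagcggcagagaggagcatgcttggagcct
Pcsk1, chr13:75089607-75089906, plus strand: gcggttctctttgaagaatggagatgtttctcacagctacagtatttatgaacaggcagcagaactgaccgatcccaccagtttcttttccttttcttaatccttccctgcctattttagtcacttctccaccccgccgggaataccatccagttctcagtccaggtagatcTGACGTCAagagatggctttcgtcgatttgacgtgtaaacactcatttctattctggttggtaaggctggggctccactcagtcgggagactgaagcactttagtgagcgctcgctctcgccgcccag
Cartpt, chr13:99900634-99900933, minus strand: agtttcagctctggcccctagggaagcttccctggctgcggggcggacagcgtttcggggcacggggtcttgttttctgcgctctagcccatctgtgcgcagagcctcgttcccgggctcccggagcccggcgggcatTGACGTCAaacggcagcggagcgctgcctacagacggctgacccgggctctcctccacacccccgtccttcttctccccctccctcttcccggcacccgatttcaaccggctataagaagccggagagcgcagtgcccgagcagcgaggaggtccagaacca
The element begins 68 bases before the start in Scg2, 78 bases before it in Pcsk1 and 112 bases before it in Cartpt. It was in a window of 2.03% of all 27025 genes of the promoter table, 3.37% of the tested genes with an entry, 2.38% of the called rises and 3.77% of the called falls. A match is a description of letters and was not tested as a site. The AP-1 motif TGANTCA, searched on both strands as well, was in 6.47% of tested genes, 5.95% of the called rises and 7.55% of the called falls.

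Several axon growth and cytoskeleton genes fell. Of 36 tested genes of axon injury and regeneration 6 fell and 1 rose (19.4%). Of 42 of the axonal cytoskeleton 7 fell and 1 rose (19%). Over all genes 4.34% were called. Gap43, a growth cone protein, had 225, 231, 213 and 270.2 CPM in WT saline 1 to 4 and 154, 134, 158 and 137 CPM in KI saline 1 to 4 and fell by 0.69 ± 0.08 on the log2 scale (adjusted p = 8.43e-05). Thy1, a surface protein of neurons, had 999, 1027, 1045 and 1088 CPM in WT saline 1 to 4 and 807, 766, 827 and 802 CPM in KI saline 1 to 4 and fell by 0.38 ± 0.05 on the log2 scale (adjusted p = 0.000398). Ina, the intermediate filament internexin alpha, was the rise of the cytoskeleton list, at 61 to 66.5 CPM in WT and 78 to 85.1 CPM in KI libraries, and rose by 0.35 ± 0.06 on the log2 scale (adjusted p = 0.00522). The rise of the regeneration list, Lifr, was lost without KI saline 1, KI saline 2, KI saline 3, KI saline 4, WT saline 3 or WT saline 4. That list had 3 falls without KI saline 4. The cytoskeleton list had 4 falls without KI saline 1, KI saline 2 or KI saline 4 and 3 without KI saline 3. The regeneration list had 1 fall and 0 rises without KI saline 1 and 4 together. Stmn2 and Tubb3, which are also pan-neuronal markers, fell by 0.21 ± 0.05 and fell by 0.16 ± 0.04; the call of Stmn2 was lost without KI saline 2, KI saline 3 or KI saline 4, and that of Tubb3 without any 1 of the 8 libraries.

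Genes of A-fibre and proprioceptive neurons rose in part. Of 51 tested members 15 were higher and 3 were lower, with a median log2 fold change of 0.26, against 2.15% higher and 2.19% lower over all genes tested. This list too holds genes known from these data (Ntrk3, Pcdh8 and Bmp3), and its count supports nothing on its own. Without KI saline 1 and 4 it had 7 higher and 2 lower. The rises numbered 8 without KI saline 2 or KI saline 4 and 9 without WT saline 3, while DESeq2 called 21 higher and 3 lower. Among the lower were Fxyd7, a regulator of the sodium pump, at 278 to 331 CPM in WT and 197 to 214 CPM in KI libraries, which fell by 0.55 ± 0.06 on the log2 scale (adjusted p = 0.000104), and Kcnv1, a silent potassium channel subunit, which fell by 0.86 ± 0.13 on the log2 scale (adjusted p = 0.00112).

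Etv1, a transcription factor required by proprioceptors, had 128, 128, 131 and 109 CPM in WT saline 1 to 4 and 161, 222, 172 and 186 CPM in KI saline 1 to 4 and rose by 0.58 ± 0.09 on the log2 scale (adjusted p = 0.00188). Runx3, which proprioceptors also need, had 14.7, 15.4, 12.5 and 9.5 CPM in WT saline 1 to 4 and 20.3, 25.4, 22 and 21.4 CPM in KI saline 1 to 4 and rose by 0.77 ± 0.14 on the log2 scale (adjusted p = 0.00532). Esrrg, a nuclear receptor, was at 20.6 to 30.5 CPM in WT and 41.2 to 61.2 CPM in KI libraries and rose by 0.88 ± 0.14 on the log2 scale (adjusted p = 0.00231). WT saline 4 was the lowest library for all 3 genes and KI saline 2 the highest. Whrn, which encodes the scaffold whirlin, was at 18.8 to 27.6 CPM in WT and 39.2 to 53.6 CPM in KI libraries and rose by 0.89 ± 0.15 on the log2 scale (adjusted p = 0.00262). Pvalb, the calcium buffer of proprioceptors, had 46, 45, 51.4 and 80.0 CPM in WT saline 1 to 4 and 122, 104, 73.1 and 89.9 CPM in KI saline 1 to 4, and its groups overlapped. It rose by 0.81 ± 0.19 on the log2 scale (adjusted p = 0.0257) and lost the call without KI saline 1, KI saline 2, WT saline 1 or WT saline 3. Its highest library, KI saline 1, is among those high for skeletal muscle RNA, and a part of muscle RNA in this rise was not tested.

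Transcription factor genes of the sensory lineages gave 8 rises and 3 falls among 89 tested (12.4%, against 4.34% over all genes), with a median of 0.13. Onecut1 had 4.1, 4.74, 3.83 and 2.39 CPM in WT saline 1 to 4 and 6.76, 8.22, 7.4 and 8.29 CPM in KI saline 1 to 4 and rose by 1.02 ± 0.19 on the log2 scale (adjusted p = 0.00507). Mef2c, an activity-dependent factor, was at 27.5 to 37 CPM in WT and 44.9 to 54.6 CPM in KI libraries and rose by 0.59 ± 0.08 on the log2 scale (adjusted p = 0.000735). Hoxd1, a homeobox gene of nociceptors, was at 23.7 to 26 CPM in WT and 16 to 20.3 CPM in KI libraries and fell by 0.46 ± 0.09 on the log2 scale (adjusted p = 0.00684).

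Genes of non-peptidergic nociceptors gave 8 rises and 0 falls among 27 tested (29.6%, against 4.34% called over all genes), with a median of 0.21. Mrgprd, a Mas-related receptor, had 194, 186, 199.5 and 152 CPM in WT saline 1 to 4 and 231, 233, 233 and 238 CPM in KI saline 1 to 4 and rose by 0.35 ± 0.07 on the log2 scale (adjusted p = 0.00654). Grik1, a kainate receptor subunit, was at 315 to 373 CPM in WT and 398 to 437 CPM in KI libraries and rose by 0.28 ± 0.05 on the log2 scale (adjusted p = 0.0078). WT saline 4 was the lowest library for both. Without KI saline 1 alone 5 members were called higher, and without KI saline 1 and 4 no member of the list was called. Genes of low-threshold C fibres and cold neurons gave 5 rises and 1 fall among 23 tested (26.1%). They gave 3 rises and 0 falls without any 1 of KI saline 1, KI saline 4 and WT saline 3, the fall was also lost without KI saline 2, KI saline 3 or WT saline 1, and DESeq2 called 9 higher and 1 lower. Rxfp1, the relaxin receptor, had 2.12, 3.1, 2.52 and 3.65 CPM in WT saline 1 to 4 and 6.72, 7.53, 7.74 and 6.63 CPM in KI saline 1 to 4 and rose by 1.33 ± 0.18 on the log2 scale (adjusted p = 0.00061). Ano1, a calcium-activated chloride channel, was at 7.33 to 10.7 CPM in WT and 14 to 21.4 CPM in KI libraries and rose by 0.87 ± 0.13 on the log2 scale (adjusted p = 0.00104).

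Of 8 tested genes of the GDNF family 1 rose and 2 fell (37.5%, against 4.34% over all genes). Gfra3, which binds artemin, was at 89.2 to 98.9 CPM in WT and 62.4 to 66.5 CPM in KI libraries and fell by 0.58 ± 0.08 on the log2 scale (adjusted p = 0.000879). Gfra2, the neurturin co-receptor, was at 174 to 261 CPM in WT and 271 to 325 CPM in KI libraries and rose by 0.35 ± 0.09 on the log2 scale (adjusted p = 0.0373), a call lost without KI saline 1, KI saline 3, KI saline 4 or WT saline 3. Gfra4, the persephin co-receptor, fell by 0.43 ± 0.09 on the log2 scale (adjusted p = 0.0128) and lost the call without KI saline 4. Ret itself was at 945 to 1132 CPM in WT and 1101 to 1214 CPM in KI libraries, and its difference of 0.09 ± 0.06 did not pass the test (adjusted p = 0.331).

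Potassium channels moved both ways, with 6 rises and 4 falls among 59 voltage-gated and calcium-activated genes (16.9%, against 4.34% over all genes). The rises numbered 3 without any 1 of KI saline 1, 2 and 4 and WT saline 4. Kcnq5, which encodes a subunit of the M-type current, was at 34.5 to 41.4 CPM in WT and 21.8 to 27.7 CPM in KI libraries and fell by 0.56 ± 0.09 on the log2 scale (adjusted p = 0.00136). Kcnab1, a beta subunit, was at 145 to 163 CPM in WT and 204 to 218 CPM in KI libraries and rose by 0.45 ± 0.05 on the log2 scale (adjusted p = 0.000151). Kcnj11, the pore subunit of the ATP-sensitive channel, is not among these genes and belongs to the inward rectifier list counted further on. It was at 7.64 to 8.66 CPM in WT and 12.6 to 15.6 CPM in KI libraries and rose by 0.77 ± 0.11 on the log2 scale (adjusted p = 0.000808). Of 18 tested sodium channel genes 1 was called (5.56%), Scn11a (Nav1.9). It rose by 0.33 ± 0.07 on the log2 scale (adjusted p = 0.0168) and lost the call without KI saline 1.

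Guidance genes gave 10 rises and 0 falls among 72 tested by edgeR (13.9%, against 4.34% over all genes). DESeq2 gave 15 rises and 2 falls. Slit2, a secreted ligand of Robo receptors, had 37.3, 32.3, 35.2 and 26.9 CPM in WT saline 1 to 4 and 48.1, 64.1, 53.7 and 61 CPM in KI saline 1 to 4 and rose by 0.79 ± 0.12 on the log2 scale (adjusted p = 0.00112). Efnb2, the ligand ephrin-B2, was at 35.5 to 44.1 CPM in WT and 50.8 to 63 CPM in KI libraries and rose by 0.42 ± 0.08 on the log2 scale (adjusted p = 0.00472). Without KI saline 2, 6 guidance genes were called higher, and without KI saline 1 and 4 together 3 were. Adhesion genes gave 8 rises and 1 fall among 96 (9.38%), and 5 rises without KI saline 2 or KI saline 4. Among the rises was Pcdh8, a protocadherin, at 4.43 to 5.32 CPM in WT and 8.43 to 10.9 CPM in KI libraries, which rose by 0.96 ± 0.16 on the log2 scale (adjusted p = 0.00278). Kif21b, a kinesin outside these lists, was at 15.2 to 20.9 CPM in WT and 33.5 to 44 CPM in KI libraries and rose by 1.00 ± 0.13 on the log2 scale (adjusted p = 0.000286).

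Other signalling and channel lists held few calls each. The called share was 2.63% for the Trk adaptors and 4.35% for clock genes, against 4.34% over all genes. It was 20% for two-pore and inward rectifier channels, 16.7% for glutamate receptor genes and 13% for itch genes. For BMP signalling it was 9.26%, for calcium channels 9.09% and for retinoic acid genes 8.33%. Of 25 two-pore and inward rectifier potassium channel genes 2 rose and 3 fell, among them Kcnk4 (TRAAK), a mechanically gated leak channel at 11.2 to 14.7 CPM in WT and 7.31 to 9.3 CPM in KI libraries, which fell by 0.55 ± 0.11 on the log2 scale (adjusted p = 0.00756). Of 30 genes of glutamate receptors and their partners 2 rose and 3 fell. Nptx1, a secreted pentraxin that gathers AMPA receptors, had 279.8, 308, 278 and 298 CPM in WT saline 1 to 4 and 211, 202, 203 and 205 CPM in KI saline 1 to 4 and fell by 0.50 ± 0.06 on the log2 scale (adjusted p = 8.07e-05). Its groups did not overlap. Of 22 calcium channel genes 2 rose, and of 54 genes of BMP, activin and TGF-beta signalling 3 rose and 2 fell. Bmp3, a ligand of that family, was at 1.06 to 2.05 CPM in WT and 3.21 to 4.51 CPM in KI libraries and rose by 1.12 ± 0.24 on the log2 scale (adjusted p = 0.0126). Of 38 adaptors of Trk signalling 1 was called, Rasgrf1, a Ras exchange factor at 10.3 to 14.3 CPM in WT and 18 to 20.5 CPM in KI libraries, which rose by 0.67 ± 0.12 on the log2 scale (adjusted p = 0.00448). Of 23 itch neuron genes 2 rose and 1 fell, but none rose without any 1 of KI saline 1, 2, 3 and 4 and WT saline 3 and 4, 4 rose without WT saline 1, and none fell without KI saline 4. DESeq2 called 6 of the itch genes higher and 1 lower. Of 24 retinoic acid genes 1 rose and 1 fell. Of 23 clock genes Per2 was the 1 called; it rose by 0.53 ± 0.14 on the log2 scale (adjusted p = 0.0365), with a loss of the call without KI saline 1, KI saline 4, WT saline 1 or WT saline 3.

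**Figure D3:**
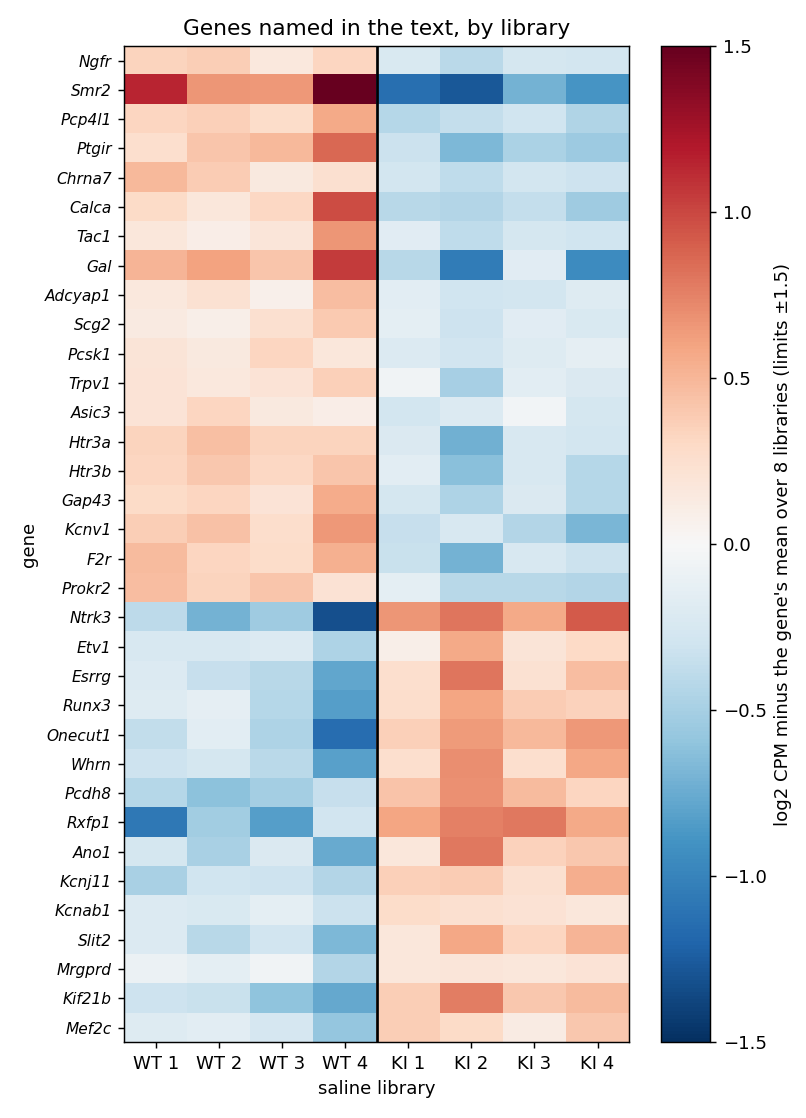
Each row is a gene and each column a saline library; colours give log2 CPM minus the gene's mean over the 8 libraries, with limits of ±1.5 beyond which the colour no longer changes. Upper rows are genes that fell and lower rows genes that rose, and WT saline 4 is the most extreme WT library for many of them.

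Housekeeping and immune groups gave few calls by edgeR. Called were 4% of ribosomal protein genes, 1.43% of oxidative phosphorylation genes and 4.76% of MAPK feedback and activity genes, against 4.34% over all genes. Of 75 ribosomal protein genes, whose reads can be shared with processed pseudogenes, 74 had a negative log2 fold change, with a median of -0.24, but 3 were called (Rpl3, Rpl31 and Rpl6), and each lost the call without KI saline 1, KI saline 2, KI saline 3, KI saline 4, WT saline 3 or WT saline 4. At an unadjusted p under 0.05 there were 59 of these genes, and DESeq2 called 24 of them lower. The edgeR count was 13 without WT saline 1 and 19 without WT saline 2. Of 70 nuclear genes of oxidative phosphorylation 68 were negative with a median of -0.21, and Ndufb3 was the 1 called. Here 43 had an unadjusted p under 0.05 and DESeq2 called 11 lower, as many as edgeR did without WT saline 2; without WT saline 1 edgeR called 4. After CFA the medians of these lists were -0.01 and 0.0083. None of 24 cholesterol synthesis genes, 47 interferon and antigen presentation genes, 16 macrophage markers, 11 satellite glial markers or 15 Schwann cell markers was called by edgeR; of these 111 different genes 8 had an unadjusted p under 0.05 and 1 was called by DESeq2. Of 42 genes of MAPK feedback and activity, Fos and Spred3 were called lower, and Spred3 lost the call without any 1 of the 8 libraries. Fos, an immediate early gene, had 7.88, 5.85, 5.13 and 3.8 CPM in WT saline 1 to 4 and 3.6, 2.86, 3.14 and 3.1 CPM in KI saline 1 to 4 and fell by 0.84 ± 0.18 on the log2 scale (adjusted p = 0.0164). The call of Fos was lost without KI saline 1 and 4 together and without WT saline 1 and 2 together. It was also lost with a muscle score as covariate and in the 8 saline libraries fitted alone.

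**Figure D4:**
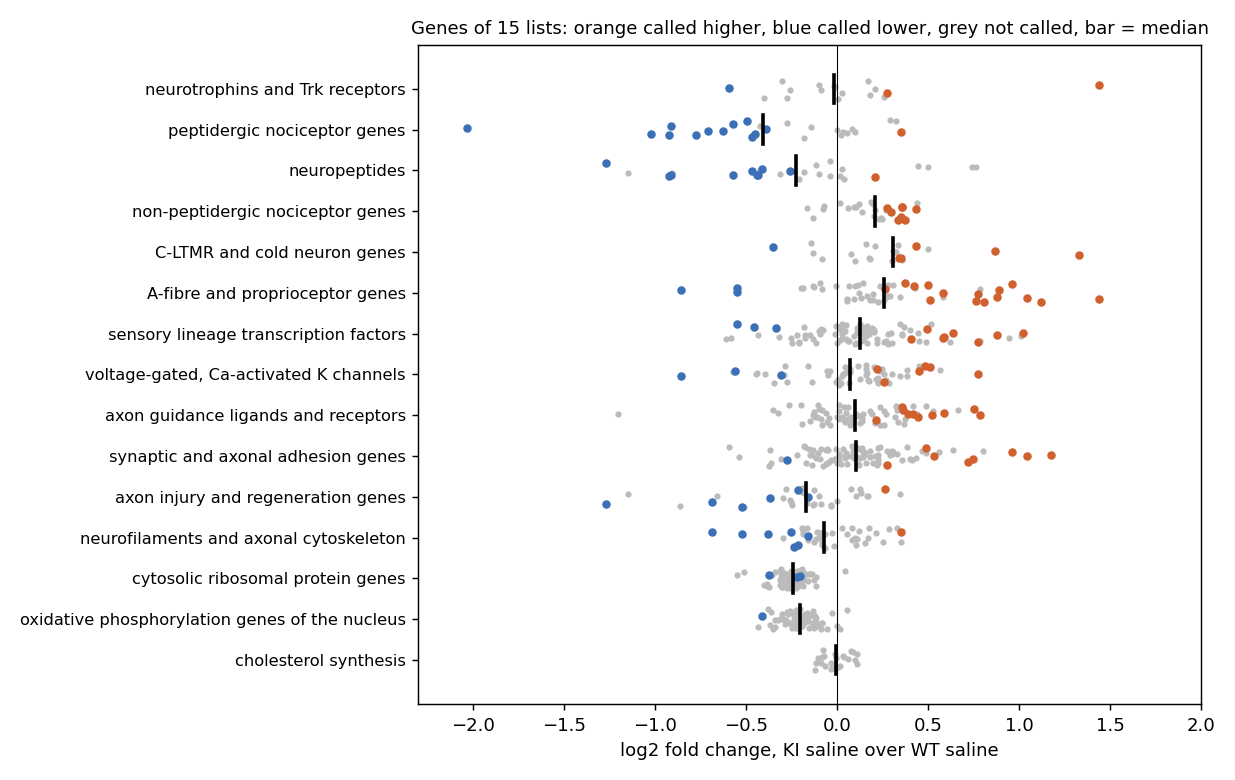
Log2 fold change of KI saline over WT saline for the tested genes of 15 lists that are reported here; orange genes were called higher, blue genes lower and grey genes not called, and black bars are medians. In the peptidergic list most called genes lie left of 0, and in the A-fibre list most lie right of it; 1 gene lies outside the axis.

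The same genotype comparison after CFA, on 8 other libraries, gave 441 called genes (2.84%). It counts WT CFA 1, which carries a knock-in tag against its title, as WT. Of the 673 genes called after saline 633 had the same sign after CFA, and 238 were called in both, all 238 with the same sign. Ngfr differed by -0.75 ± 0.06 after CFA, Ntrk3 by 1.13 ± 0.14 and Calca by -0.71 ± 0.13. The difference of the genotype differences was called for 0 genes (0%) by edgeR, with 976 at an unadjusted p under 0.05, and for 0 by DESeq2 with 1076 and by limma-voom with 1102. Fos differed by -0.84 ± 0.18 after saline and 0.00 ± 0.18 after CFA, with an unadjusted p of 0.00446 for the difference. Prokr2 differed by -0.71 ± 0.11 and -1.30 ± 0.11, with an unadjusted p of 0.00117. Neither passes adjustment over all genes.

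**Figure D5:**
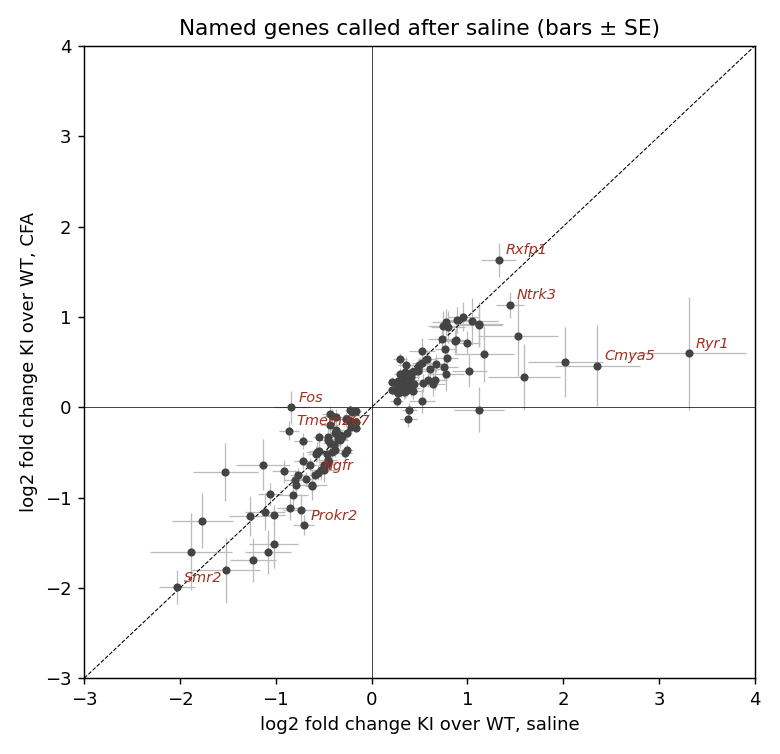
Log2 fold change of KI over WT after saline (x) and after CFA (y) for 142 named genes called after saline, with SE bars; the dashed line is equality. Of these genes 138 lie on the same side of 0 in both, and the muscle genes Ryr1 and Cmya5 lie far below the line.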

How the data were processed

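The authors deposited one table of raw counts per gene for all 16 libraries. Per the labels' protocols, poly-A RNA was taken from 150 ng of total RNA, made into libraries with strand selection and 15 PCR cycles, and read single-end for 50 cycles. Per the submitters' processing notes, the tools included HTSeq 0.6.1p1, SAMtools 1.5, Bowtie2 2.3.5.1 and TopHat2 2.1.1, and the build was mm10; the annotation and strand setting are not given in the sources used here. The 28 entries with a symbol but no numeric identifier (0.192% of counts) were kept. Gene names were matched by identifier to RefSeq's GRCm38.p6 table (99.7%).

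Genes were tested with edgeR 4.0.16 (R 4.3.3) by glmQLFit and glmQLFTest on all 16 libraries, with a mean per group, TMM scaling and filterByExpr, and p-values were adjusted by Benjamini-Hochberg over 15507 genes. Values of single genes are TMM-scaled CPM. Summed CPM over lists are counts divided by the library total, without the TMM factor. Errors of log2 fold changes are the change divided by the root of F. Transcript lengths are the longest GENCODE vM21 transcript. Alternatives used DESeq2 1.42.0 and limma 3.58.1. WT CFA replicate 1 carries a knock-in tag against its title and was kept in the WT CFA group. It enters no saline group mean, but it enters the shared fit. Without it 529 genes were called after saline, 516 of them among the 673.

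Genes named are the receptors, the largest and most certain changes, the most abundant called genes and members of 31 gene lists and 14 marker lists. The members and lists were chosen with earlier results of these data known. Not every gene selected this way is described, and some results are left out of the text and figures, although counts over lists and all genes include them. Labels do not say that equal replicate numbers share a mouse or batch. P-values set each difference against the spread between pools of mice, estimated from all 16 libraries with the CFA pools included.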

Additional observations from a re-analysis of the deposited data

Results flagged for a closer look

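In groups of 4 libraries, 1 library lay far from the other 3 for 22 of the 306 group values examined, and about 1 in 20 does so by chance. WT saline 4 was that library for 11 of them. It was high for Calca (1792 CPM), Tac1 (367 CPM), Stmn1 (470.3 CPM), Nmb (149.7 CPM), Ifi27 (141 CPM) and Stk32c (62.8 CPM). It was low for Lifr (608 CPM), Gfra2 (174 CPM), Etv1 (109 CPM), Clstn2 (35.1 CPM) and Cacna1i (9.65 CPM). WT saline 2 was low for Gfra3 (89.2 CPM) and high for Htr3a (239.6 CPM), and WT saline 3 was high for Ildr2 (12.2 CPM). KI saline 2 was low for Htr3a (107 CPM), Kcnk2 (9.86 CPM), Pam (180.2 CPM) and Zfhx4 (29.7 CPM). KI saline 4 was high for Gabrb2 (36.4 CPM) and low for Kcnip2 (120.1 CPM) and Tubb3 (2564 CPM), and KI saline 1 was high for Prokr2 (10.6 CPM).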

How the results depend on the processing

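The 673 genes called after saline kept their sign under each other scaling, filter and tool wherever tested (656 of them with a CPM of at least 1 in 4 libraries), 669 kept it without KI saline 1 and 4 and 670 with the muscle score. The count of calls differed between settings. DESeq2 called 1465 genes (733 higher, 732 lower), and the 8 saline libraries fitted alone gave 214 (94 and 120). An adjusted p under 0.01 left 156 (58 and 98), one under 0.1 gave 1721 (820 and 901), and a minimum of 1.5-fold left 174 (111 and 63). Leaving out 1 saline library gave 284 to 905 calls, 131 to 444 higher and 153 to 461 lower, and 213 of the 673 genes were called in all 8 such fits. The count moved by over 1.5 times without KI saline 1 (354), KI saline 2 (408), KI saline 3 (410), KI saline 4 (284), WT saline 3 (367) and WT saline 4 (401). Without KI saline 1 and 4 it was 132 (50 and 82), without WT saline 3 and 4 it was 194 (69 and 125), and without WT saline 1 and 2 it was 2437 (1270 and 1167). With a muscle score as covariate it was 268 (107 and 161), and with a ribosomal protein score 273 (85 and 188). Without KI saline 1 and 4 and WT saline 4, an alternative chosen after seeing the data, it was 162 (59 and 103). Without WT CFA 1, which carries a knock-in tag against its title, it was 529 (283 and 246), with 516 among the 673. The cause of these shifts was not tested.

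With the replicate number as a block 484 genes were called (241 higher, 243 lower). The numbers were not taken as pairs because the labels do not say that they mark shared mice, litters or days. Deviations of same-numbered KI and WT libraries had correlations of 0.03, 0.13, 0.06 and -0.05. Those of other KI and WT pairs ran from -0.15 to 0.19. Of the 29 genes named by the rule that kept the call under every alternative here, Ngfr, Ntrk3, Smr2, Pcp4l1, Ptgir, Calca, Chrna7, Htr3a, Htr3b, Gabrg3, Gap43, Kcnv1, F2r, Prokr2, Esrrg, Whrn, Pcdh8, Rxfp1, Ano1, Kcnj11, Slit2, Kif21b and Mef2c are described above. No named gene reversed.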
